A study of Mus musculus with 12 samples.

Results

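The quantity examined is the interaction between the Batf3 vector and stimulation in mouse CD8 T cells, that is, how far the response of a gene to stimulation differed between cells with the Batf3 vector and cells with the control vector. For each gene it is the log2 change on stimulation with the Batf3 vector minus the log2 change on stimulation with the control vector. It was computed for every gene that passed a filter on low counts, 15702 of the 55335 genes in the table, from all 12 libraries of the series. A positive interaction means that the response was more positive, or less negative, with the Batf3 vector, and a value of 1 on this scale is a 2-fold difference between the responses.

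The cells were splenic CD8 T cells of OT-I mice on a C57BL/6 background, whose transgenic T cell receptor recognises an ovalbumin peptide. They were transduced with a retroviral vector, sorted for successful transduction and cultured for 6 h in 4 groups of 3 libraries: control vector in medium with 100 ng/ml IL-15 (non-stimulated), control vector with plate-bound anti-CD3e and anti-CD28 at 1 µg/ml each (stimulated), and the Batf3 vector in the same 2 cultures. The labels name IL-15 for the non-stimulated cultures only, so as far as they say the response to stimulation also holds the absence of IL-15, and the 2 cannot be told apart. The 3 libraries of a group are technical replicates, so SDs, SEs and p-values measure technical spread and not the spread between mice or transductions.

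BATF3 binds DNA through a basic leucine zipper and belongs to the AP-1 superfamily. BATF factors pair with JUN proteins at AP-1 sites and, together with IRF4 or IRF8, at composite sites. Engagement of the T cell receptor and CD28 activates AP-1, NFAT and NF-kB, which switch on cytokines, activation receptors and MYC-driven growth, while many genes of resting and cycling cells are switched down within hours.

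Total counts lay between 14211564 and 14468231 per library, and 3 counts corresponded to between 0.191 and 0.229 CPM (counts scaled to a common library size with TMM factors). The share of counts from mitochondrial genes lay between 1.64 and 2.31%, with the third Batf3 stimulated library lowest. That library also stood farther from its group than any other, with a chi-square per gene of 3.16 and 2.62 against the other two. Batf3 itself was at 7.44, 5.83 and 7.02 CPM in control non-stimulated, 18.3, 19.1 and 17.7 in control stimulated, 475, 468 and 469 in Batf3 non-stimulated and 435, 414 and 434 in Batf3 stimulated cells. The vector labels were thus matched by every library. Vector and endogenous transcripts cannot be told apart in these counts, so the Batf3 interaction of -1.58 ± 0.10 describes their sum.

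The 7 CD8 T cell markers summed to between 2200 and 3340 CPM in every library. B cell markers were led by Ighm, whose list summed to 366 to 381 CPM in control non-stimulated, 53.8 to 57.3 in control stimulated, 400 to 418 in Batf3 non-stimulated and 43.3 to 46.8 in Batf3 stimulated cells, while Ms4a1 had no counts. The CD4 list of 4 markers (Cd4, Cd40lg, Zbtb7b and Foxp3) summed to 13.5 to 16.8, 25.1 to 28.3, 34.5 to 36.8 and 69.1 to 73.5 CPM in the same order. Cd4 itself did not pass the filter and lay between 0 and 0.668 CPM in every library, so the sums rest on the other members. Monocyte and macrophage markers lay between 8.62 and 19.9, dendritic cell markers between 24.9 and 64.9, neutrophil markers between 2.68 and 6.34 and erythroid and platelet markers between 1.37 and 7.95 CPM. NK cell markers, of which Gzma, Eomes, Nkg7 and Klrb1c are also CD8 T cell genes, lay between 599 and 1030 CPM, with Ncr1 and Klra8 at 0. The part of such cells in the interactions was not tested, and in bulk RNA fewer cells of a type and less RNA per cell cannot be told apart.

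Promoter sequence is shown for 5 genes whose interactions are described later: Gzmb and Cdca7, whose rise was enlarged, Mcm6 and Mcm5, whose fall was shrunk, and Ctla4, whose fall was reversed. The 250 bases before the RefSeq start (GRCm38.p6) are printed 5′ to 3′ on the strand of the gene. Capitals mark the letters TGANTCA (the AP-1 motif), TGACGTCA (the CRE motif), and TTTGGCGC or TTTCCCGC (letters of E2F sites) on either strand. The Ctla4 window belongs to the RefSeq start and lies inside the span that GENCODE gives the gene.
Gzmb, chr14:56262335-56262584, minus strand: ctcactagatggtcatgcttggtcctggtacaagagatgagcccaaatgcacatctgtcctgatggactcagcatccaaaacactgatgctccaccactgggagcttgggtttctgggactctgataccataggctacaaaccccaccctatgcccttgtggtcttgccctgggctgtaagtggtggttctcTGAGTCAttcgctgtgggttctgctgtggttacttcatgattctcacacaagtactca
Mcm6, chr1:128359706-128359955, minus strand: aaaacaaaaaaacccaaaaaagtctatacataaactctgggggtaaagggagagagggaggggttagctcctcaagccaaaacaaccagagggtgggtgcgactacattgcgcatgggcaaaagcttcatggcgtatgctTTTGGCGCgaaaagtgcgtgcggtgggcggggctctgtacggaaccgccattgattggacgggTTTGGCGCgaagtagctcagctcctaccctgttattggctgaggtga
Mcm5, chr8:75109259-75109508, plus strand: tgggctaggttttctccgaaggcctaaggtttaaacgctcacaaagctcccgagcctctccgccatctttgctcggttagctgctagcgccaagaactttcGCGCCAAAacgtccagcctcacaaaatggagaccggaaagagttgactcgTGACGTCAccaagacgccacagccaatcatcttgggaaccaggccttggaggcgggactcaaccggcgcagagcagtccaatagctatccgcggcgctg
Cdca7, chr2:72475969-72476218, plus strand: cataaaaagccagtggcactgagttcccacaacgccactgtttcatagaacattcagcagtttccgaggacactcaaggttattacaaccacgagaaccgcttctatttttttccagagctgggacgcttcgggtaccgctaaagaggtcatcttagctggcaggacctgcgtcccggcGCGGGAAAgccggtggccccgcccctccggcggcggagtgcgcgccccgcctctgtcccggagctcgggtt
Ctla4, chr1:60908775-60909024, plus strand: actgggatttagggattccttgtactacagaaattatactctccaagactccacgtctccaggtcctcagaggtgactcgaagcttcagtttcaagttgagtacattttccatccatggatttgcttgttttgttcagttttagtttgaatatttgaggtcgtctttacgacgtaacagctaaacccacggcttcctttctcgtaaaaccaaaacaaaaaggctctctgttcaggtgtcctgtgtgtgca

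Gzmb held TGAGTCA 58 to 52 bases before its start. Mcm6 held TTTGGCGC at 110 to 103 and at 47 to 40 bases before its start. Mcm5 held GCGCCAAA at 149 to 142 and TGACGTCA at 99 to 92 bases, Cdca7 held GCGGGAAA at 71 to 64 bases, and Ctla4 held none of these letters. In windows of 300 bases (the 250 printed and 50 after the start), TGANTCA occurred in 7.81% of 32851 RefSeq windows and in 5.33% of those of tested genes. Among genes with a called interaction of at least 2-fold it was found in 15.2% of 46 windows of enlarged rises, 12% of 25 of shrunk falls, 9.52% of 21 of shrunk rises, 8.33% of 24 of lost, 5% of 20 of enlarged falls, 2.56% of 39 of gained and 0% of 16 of reversed responses. These are few windows, and over all called enlarged rises the share was 4.86%. The E2F letters, which were chosen after the values were seen, occurred in 1.56% of all windows, 2.95% of those of tested genes, 33.3% of 27 windows of the DNA replication list described later and 0% of those of the mitosis list. These matches are descriptions of letters and not of binding.

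Of the 15702 tested genes, 3250 had a called interaction (edgeR's quasi-likelihood test, Benjamini-Hochberg adjusted p under 0.05), which is 20.7%. Positive calls numbered 2296 (14.6%) and negative calls 954 (6.08%). The median size of a called interaction was 0.35 on the log2 scale, so most were changes of degree. Calls of at least 2-fold numbered 130 positive (0.828%) and 114 negative (0.726%). The direction split depended on scaling: 70.6% of calls were positive here and 55.9% with upper quartile factors (1652 positive and 1301 negative), while the median interaction over all tested genes was 0.05.

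The responses themselves were large and wide. With the control vector 80.3% of tested genes changed on stimulation, 6220 upward and 6384 downward, and with the Batf3 vector 82.7% changed, 6477 upward and 6508 downward. Each called interaction was therefore placed in a class by the 2 responses, which rest on separate libraries. An enlarged or shrunk response was called with both vectors in one direction and was larger or smaller with Batf3. A reversed response was called with both vectors in opposite directions, a gained one with Batf3 alone and a lost one with control alone, and one gene was called in neither.

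Enlarged rises were the most frequent class, with 1319 genes (40.6% of calls), and their median response was 0.93 with the control and 1.23 with the Batf3 vector. This count was lower in several alternatives. It was 959, 865 and 883 without the first, the second or the third control stimulated library. It was 986 and 959 without the first or the second Batf3 stimulated library, 913 with upper quartile factors and 938 with library sizes alone. The median effect of the vector on these genes was -0.27 in non-stimulated and -0.01 in stimulated cells, so that the typical enlarged rise started lower and ended level. Shrunk falls numbered 618 (19% of calls), with median responses of -1.72 and -1.20. Their vector effect was -0.07 in non-stimulated and 0.36 in stimulated cells, which places the difference after stimulation. Shrunk falls did not outnumber enlarged ones in every fit. There were 506 shrunk and 637 enlarged falls with upper quartile factors, 456 and 519 without the filter on low counts, and 551 and 609 at 10 CPM or more. The order also turned without the first (470 and 476) or the third (462 and 470) control stimulated library and without the first (494 and 513) or the second (476 and 511) Batf3 stimulated library.

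There were 448 enlarged falls (13.8% of calls), with median responses of -1.17 and -1.59, and 254 shrunk rises (7.82% of calls), with medians of 1.39 and 0.90. Reversed responses numbered 108, of which 43 rose with the control and fell with the Batf3 vector and 65 did the opposite. Their medians were near 0 (0.21 and -0.21 for the first kind, -0.24 and 0.21 for the second), so a reversal was usually a small rise against a small fall. Rises gained numbered 171 and falls gained 113, and rises lost numbered 95 and falls lost 123. Counts of gained and lost genes depend on the threshold that each response had to pass. Leaving out the first, the second or the third control stimulated library lowered the falls lost to 76, 71 and 73. The rises gained fell to 109 and 106 without the first or the third control stimulated library and to 107 without the second Batf3 stimulated library, and the rises lost rose to 146 without the first Batf3 stimulated library.

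**Figure D1:**
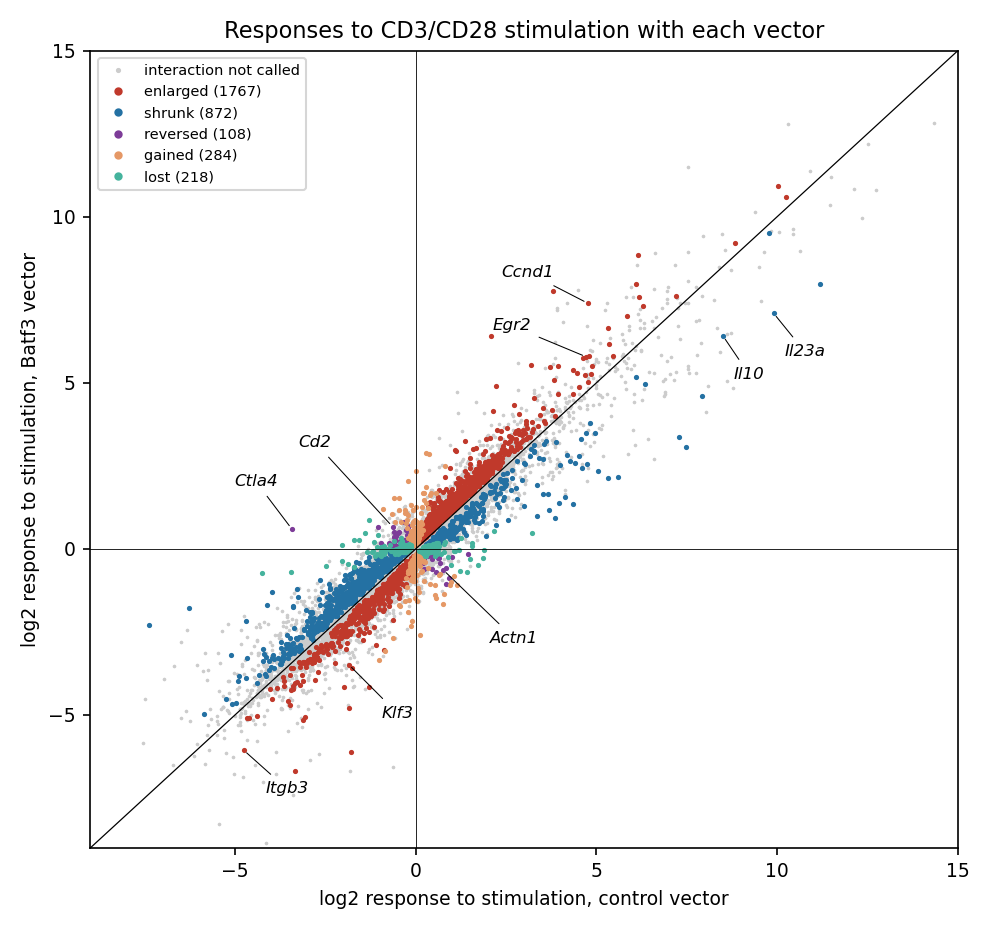
Each point is 1 of the 15702 tested genes, with its log2 response to stimulation with the control vector on the x axis and with the Batf3 vector on the y axis; colours give the class of called interactions with their counts, and grey points were not called. Genes lie along the diagonal of equal responses, 1767 enlarged responses lie farther from 0 with Batf3, 872 shrunk ones lie nearer to 0, and Ctla4 lies far from the diagonal among the reversals.

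Enlarged responses outnumbered shrunk ones among rises in every alternative fit, while the order among falls depended on the processing. Among the 2812 genes that rose at least 2-fold on average over both vectors, 720 (25.6%) had an enlarged and 140 (4.98%) a shrunk rise, and their median response was 1.63 with the control and 1.75 with the Batf3 vector. Among the 3816 genes that fell at least 2-fold, 296 (7.76%) had an enlarged and 440 (11.5%) a shrunk fall, and the medians were -1.88 and -1.86. With upper quartile factors the falls held 383 enlarged and 357 shrunk responses (171 and 154 at 4-fold), and without the filter on low counts 330 and 329 (144 and 137 at 4-fold). At 4-fold the counts were 220 enlarged and 69 shrunk among 1039 rises, and 133 enlarged and 190 shrunk among 1694 falls. The average response, called for 86.5% of tested genes, uses neither vector as the reference. Where the 2 responses are measured with unequal precision, as at low counts, choosing by it can still favour a class. How far it did so was not tested.

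**Figure D2:**
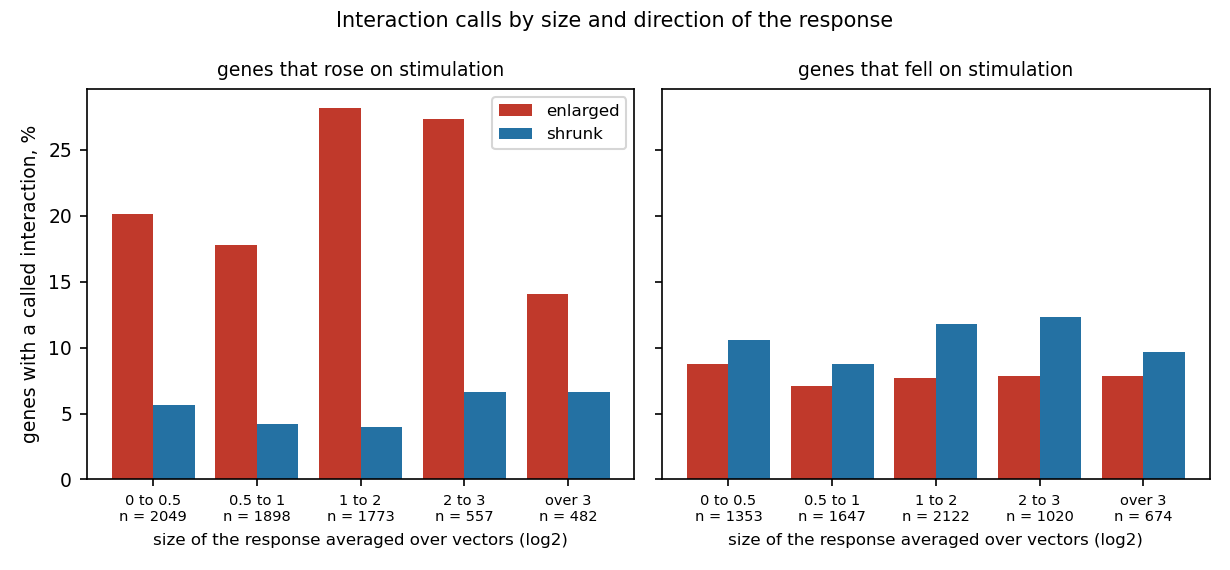
Bars give the share of genes with an enlarged (red) or shrunk (blue) response among genes called for the average response, split by direction (left rise, right fall) and by its size on the x axis (log2), with n under each bin. Enlarged responses outnumber shrunk ones in every bin of rises, from 14.1 to 28.2% against 4 to 6.64%, and with TMM scaling shrunk ones outnumber enlarged ones in every bin of falls, from 8.74 to 12.3% against 7.1 to 8.72%.

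Ctla4, the inhibitory receptor that competes with CD28 for its ligands, had the largest interaction among called genes with at least 10 CPM in a group. It is on chromosome 1, 60887000 to 60915832 (GRCm38, ENSMUSG00000026011). Its level was 93.4, 89.2 and 87.3 CPM in control non-stimulated and 8.3, 8.38 and 8.38 in control stimulated cells, and 160, 170 and 168 CPM in Batf3 non-stimulated and 256, 254 and 245 in Batf3 stimulated cells. Stimulation thus lowered it 10.8-fold with the control vector and raised it 1.52-fold with the Batf3 vector, with no overlap between groups. The interaction was 4.03 ± 0.09 (SE, adjusted p = 1.74e-48), from a response of -3.43 ± 0.08 with the control and one of 0.60 ± 0.03 with the Batf3 vector.

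The neighbours of Ctla4 on chromosome 1 gave other values. Icos, a costimulatory relative of CD28 at 60977927 to 61000320, was at 67.1, 68.7 and 67.8 CPM in control non-stimulated and 21.8, 21.6 and 20.9 in control stimulated cells, against 118, 116 and 117 and then 87.2, 91.4 and 86.5 with Batf3. Its fall shrank from -1.66 ± 0.06 to -0.41 ± 0.04 (interaction 1.26 ± 0.07). Cd28 itself, at 60716800 to 60773359, fell with both vectors, with responses of -1.89 ± 0.05 and -1.91 ± 0.05 and an uncalled interaction of -0.02 ± 0.07 (adjusted p = 0.895).

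Cd2, an adhesion receptor that costimulates T cells, also changed direction. It was at 165, 173 and 174 CPM in control non-stimulated and 112, 106 and 111 in control stimulated cells, and at 169, 181 and 176 CPM in Batf3 non-stimulated and 282, 274 and 281 in Batf3 stimulated cells. The 2 non-stimulated groups overlapped, whereas after stimulation the groups were 2.48-fold apart beyond that start (interaction 1.31 ± 0.05). Casz1, a zinc finger transcription factor, fell with the control vector from 11.7, 9.28 and 9.14 to 5.03, 4.8 and 4.8 CPM and rose with Batf3 from 8.1, 6.92 and 6.73 to 11.5, 11.5 and 11.6 CPM (interaction 1.71 ± 0.18).

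Actn1, which encodes an actin crosslinker, went the other way. It rose with the control vector from 29.8, 27.9 and 29.8 to 46.8, 45.7 and 55.2 CPM and fell with Batf3 from 27.4, 28.3 and 30.2 to 20.8, 18.6 and 16.2 CPM (interaction -1.38 ± 0.11). Foxp3, the regulatory T cell transcription factor, was at 12.2, 11.8 and 11.4 CPM in Batf3 non-stimulated and 5.8, 4.3 and 6.93 in Batf3 stimulated cells. With the control vector it was at 0.465, 0.398 and 0.994 and at 1.37, 1.37 and 0.609 CPM, where the groups overlap and the called rise of 0.84 ± 0.39 rests on 28 and 44 counts. Its interaction was -1.90 ± 0.42, the Batf3 response of -1.05 ± 0.15 minus that control response.

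**Figure D3:**
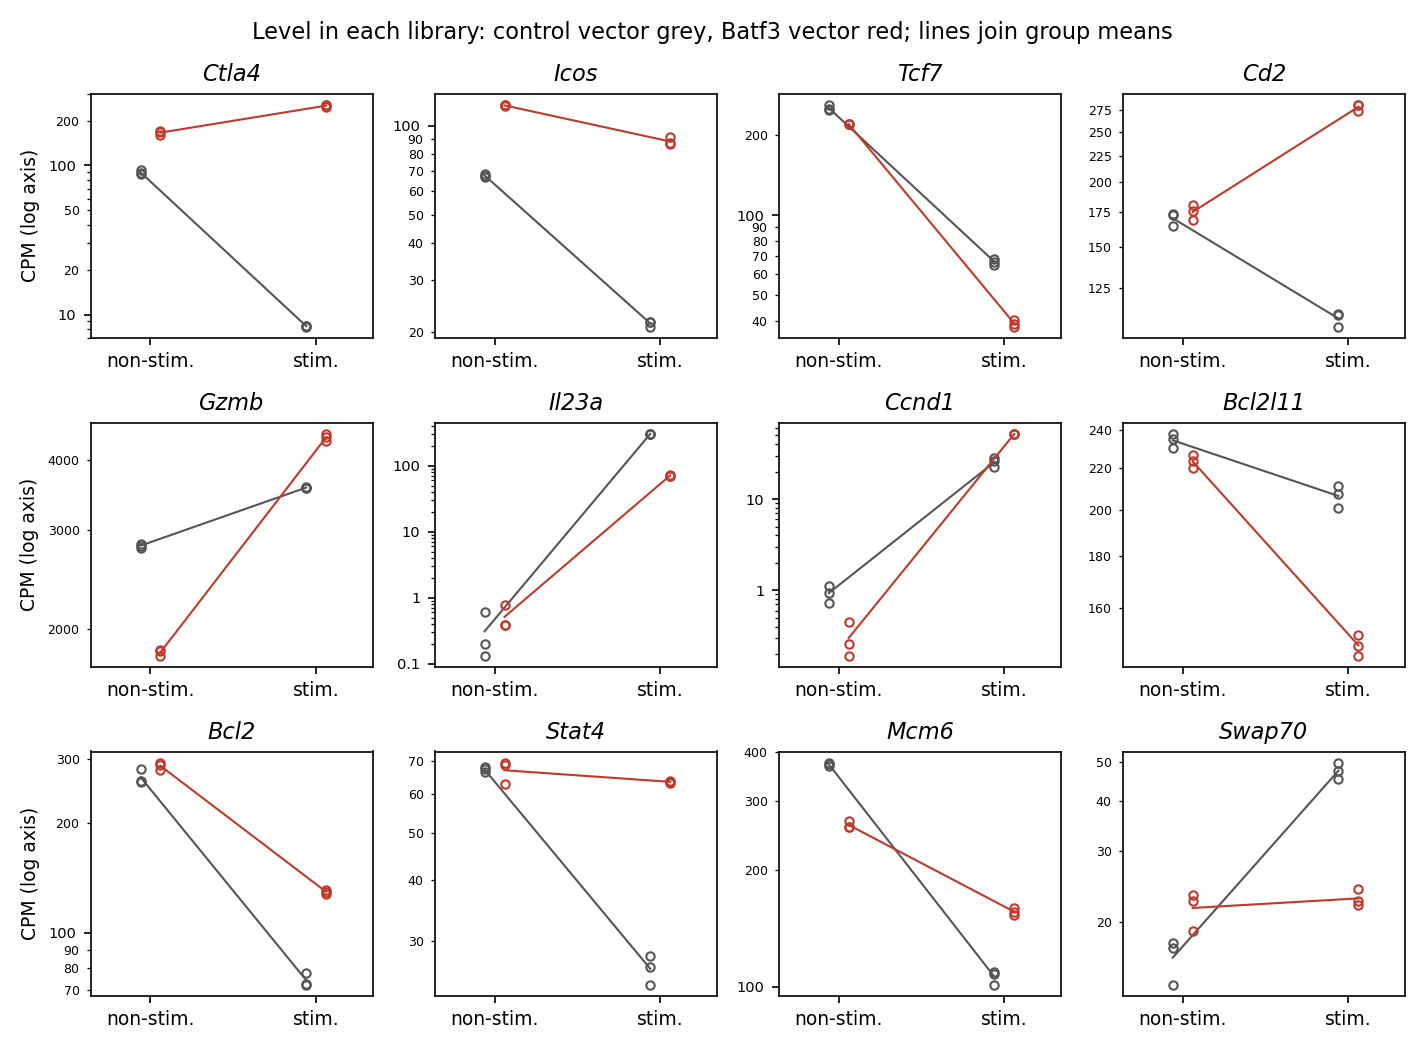
Circles give the level of 12 genes in each library (CPM, log axes that differ between panels) in non-stimulated and stimulated cells, with the control vector in grey and the Batf3 vector in red, and lines join the group means of 3 libraries. Parallel lines would be equal responses; the lines of Ctla4 and Cd2 diverge in direction, those of Gzmb, Ccnd1, Mcm6 and Swap70 cross, and those of Bcl2 and Stat4 part after stimulation.

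Receptors that set the threshold of T cell activation had calls in both directions. Of 19 tested inhibitory receptors and exhaustion factors, 7 were called positive and 3 negative (36.8 and 15.8%). That is about the same ratio of directions as over all tested genes (14.6 and 6.08%). The median interaction of the list was 0.39 (0.28 without the second Batf3 stimulated library). The rise of Btla went from 0.93 to 1.73 (interaction 0.79 ± 0.10) and that of Tigit from 1.23 to 1.76, whereas that of Lag3 went from 2.50 to 2.09 (interaction -0.41 ± 0.06) and the small rise of Vsir was lost. Tox, at 1.73, 1.13 and 1.19 CPM in control non-stimulated and 0.381, 0.533 and 0.609 in control stimulated cells, lost its fall with Batf3 (interaction 1.86 ± 0.54), at levels where few reads were counted. Of 17 costimulatory receptors 7 were called positive and 1 negative (41.2 and 5.88%), with a median of 0.15. Crtam, an early activation receptor of CD8 T cells, had an enlarged rise (1.01 ± 0.13) that came from a lower start, 4.02, 3.72 and 3.72 CPM against 9.43, 9.75 and 9.34, and not from a higher level after stimulation, where it was at 600, 598 and 612 against 754, 736 and 748 CPM.

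Among enlarged rises the largest interactions belonged to genes that were almost silent before stimulation. Ccnd1, which encodes cyclin D1, rose from 0.731, 1.13 and 0.928 to 22.2, 28.2 and 25.9 CPM with the control vector and from 0.255, 0.449 and 0.192 to 51.1, 52.2 and 52.1 CPM with Batf3. These rises are 27.2-fold and 169-fold, and the interaction was 2.63 ± 0.46 (adjusted p = 8.25e-07). Samd4, which encodes an RNA-binding protein, had 18 counts in control and 3 in Batf3 non-stimulated cells, so its ratios of 72.1 (95% counting interval 45.4 to 122) and 530 (181 to 2570) are loosely bounded, and after stimulation it was at 32.1, 26.5 and 27.6 against 34.7, 33.8 and 33.1 CPM. Stra6, a retinol transporter gene with 12 and 7 counts before stimulation, reached 19.4, 18.1 and 18.7 CPM with control and 37.9, 39 and 41.4 with Batf3, and its interaction of 1.87 ± 0.69 lost its call (adjusted p = 0.0673 to 0.127) when the second or the third control non-stimulated or the first or the third Batf3 non-stimulated library was left out.

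Dusp14, a phosphatase that dampens T cell receptor signals, rose to 15.8, 20.1 and 16.8 CPM with control and to 39.3, 44.1 and 45.3 with Batf3 (interaction 1.75 ± 0.31). Map2k3os, an antisense RNA, had an interaction of 1.57 ± 0.40, and since the strand setting of the counting is not given in the sources used here its reads cannot be told apart from those of its partner. Egr2, a zinc finger factor induced by T cell receptor signals, had the largest interaction among 26 immediate early factors. It rose from 12, 11.1 and 11.4 to 301, 305 and 307 CPM with control and from 9.37, 10.2 and 8.01 to 514, 505 and 499 CPM with Batf3 (interaction 1.06 ± 0.10).

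Of 23 tested cytotoxic effector genes 11 were called positive (47.8%, beside 14.6% of all tested genes), 1 (Id2, -0.21 ± 0.05) negative and 11 in neither direction, with a median interaction of 0.29. Gzmb, which encodes granzyme B, was at 2792, 2840 and 2816 CPM in control non-stimulated and 3573, 3565 and 3589 in control stimulated cells, and at 1793, 1832 and 1826 CPM in Batf3 non-stimulated and 4396, 4328 and 4463 in Batf3 stimulated cells. The Batf3 groups thus started below and ended above the control groups, and the rise grew from 1.27-fold to 2.42-fold (interaction 0.93 ± 0.03, adjusted p = 1.61e-35). Gzma, which encodes granzyme A, fell from 46, 45 and 41.1 to 14.3, 12.7 and 13.7 CPM with control and from 121, 125 and 127 to 88.4, 86 and 81.9 CPM with Batf3, a shrunk fall (interaction 1.15 ± 0.09). Prf1, the perforin gene, had an interaction of 0.26, and Prdm1, which encodes BLIMP-1, lost its fall (0.91 ± 0.18).

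Cytokines did not share a direction: of 29 tested, 8 were called positive and 6 negative (27.6 and 20.7%). Over all tested genes the shares were 14.6 and 6.08%. The median interaction of the cytokines was 0.07 and turned to -0.04 when only genes with at least 10 CPM in a group were tested. Il23a, which encodes the p19 subunit of IL-23, rose from 0.199, 0.133 and 0.596 to 307, 304 and 303 CPM with control and from 0.383, 0.385 and 0.769 to 72.9, 70.5 and 70.7 CPM with Batf3. The non-stimulated groups overlap, and the difference lies in the stimulated level (interaction -2.80 ± 0.49, adjusted p = 1.36e-06). Il10, an anti-inflammatory cytokine gene, reached 53.8, 49.6 and 50.4 CPM with control and 18.5, 17.5 and 15.3 with Batf3 from 6 and 9 counts before stimulation. Its interaction of -2.09 ± 0.76 (adjusted p = 0.0343) lost its call without the second or the third control non-stimulated or the first or the third Batf3 non-stimulated library (0.0592 to 0.164). Il24 had an interaction of -1.80 ± 0.37 and the chemokine gene Cxcl16 one of -1.22 ± 0.30, both from lower levels after stimulation.

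The main cytokines of CD8 T cells moved little by comparison. Ifng rose from 14.2, 15.9 and 13.8 to 13190, 12920 and 12800 CPM with control and from 16.4, 17.2 and 14.2 to 11900, 11660 and 11580 CPM with Batf3 (interaction -0.27 ± 0.08, adjusted p = 0.00402). This call was lost without the second Batf3 non-stimulated library (adjusted p = 0.0669). Il2, the T cell growth factor gene, gave -0.28 ± 0.15 (adjusted p = 0.204) around rises of 9.85 and 9.57. Tnf had an enlarged rise (0.42 ± 0.05) that came from a lower start, 54.5, 48.6 and 53.8 against 70.6, 75.9 and 67 CPM, with stimulated levels of 2034, 2022 and 2048 against 2065, 2044 and 2086 CPM.

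The chemokine genes Xcl1, Ccl3 and Ccl4 showed the same arrangement, with interactions of 0.89 ± 0.11, 0.36 ± 0.14 and 0.36 ± 0.08 and stimulated levels that were no higher with Batf3. Spp1, the osteopontin gene, rose from 9.1, 11 and 9.08 to 19, 19.4 and 17.9 CPM with control and from 3, 2.05 and 2.76 to 13.7, 14.3 and 14.2 CPM with Batf3 (interaction 1.49 ± 0.18). Of 10 TNF superfamily ligands 5 were called positive (50%, beside 14.6% of all tested genes) and none negative, with a median of 0.30. Of these ligands 3 were called positive without the third control stimulated or the second Batf3 stimulated library. Tnfsf11, which encodes RANKL, had an interaction of 1.32 ± 0.16 from a start of 2.49, 2.44 and 2.12 against 5.85, 6.63 and 6.36 CPM, while that of Tnfsf10, which encodes TRAIL, was 0.66 ± 0.07 and belonged to a shrunk fall.

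Shrunk rises also included Sulf2, a sulfatase gene, at 12.4, 11.1 and 10.9 against 5.95, 6.01 and 6.05 CPM after stimulation (interaction -1.73 ± 0.41). Cth, which encodes cystathionine gamma-lyase, had 1 count in control and 8 in Batf3 non-stimulated cells. After stimulation it was at 73.7, 68.6 and 75.5 CPM with control and 44.6, 46.3 and 44.3 with Batf3, and the size of its interaction cannot be bounded from so few counts (ratios 3280, counting interval 589 to 129740, and 264, interval 134 to 613). Its call was lost without the second or the third control non-stimulated or the first or the third Batf3 non-stimulated library. Plk2, a kinase gene of the p53 response, rose to 445, 435 and 433 CPM with control and 356, 359 and 358 with Batf3 (interaction -0.91 ± 0.11). It also started higher with Batf3, with a vector effect of 0.62 before and -0.29 after stimulation.

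Transcription factors of the first hours moved in both directions. Of 26 immediate early factors 9 were called positive and 4 negative (34.6 and 15.4%, beside 14.6 and 6.08% of all tested genes). Their median of 0.02 turned in sign under other scalings (-0.03 to 0.01). Maff (0.68 ± 0.13), Egr1 (0.59) and Nr4a3 (0.35) had enlarged rises. Irf4, a partner of BATF factors at composite sites, had a shrunk rise, from 116, 115 and 117 to 1372, 1369 and 1355 CPM with control and from 106, 108 and 108 to 965, 951 and 956 CPM with Batf3 (interaction -0.40 ± 0.04). Irf8, another such partner, gave -0.15 ± 0.05, a call lost without the first or the third Batf3 non-stimulated library (adjusted p = 0.0599 and 0.053). Nr4a1, a reporter of T cell receptor signal strength, rose by 3.54 ± 0.04 with each vector, and its interaction was not called (0.00 ± 0.06, adjusted p = 1). Cd69, the early activation antigen, gave 0.07 ± 0.04 (adjusted p = 0.24).

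The AP-1 and BATF family, to which the vector's product belongs, had 6 positive and 3 negative calls among 19 tested (31.6 and 15.8%). Over all tested genes the shares were 14.6 and 6.08%. The median of the family was 0.10. Jun reversed, from 105, 112 and 107 to 87.7, 87.8 and 94.4 CPM with control and from 108, 96.1 and 98.6 to 146, 147 and 152 CPM with Batf3 (interaction 0.82 ± 0.06). The rise of Fosl2 was enlarged (0.59 ± 0.07), while those of Batf (-0.43 ± 0.10) and Atf3 (-0.36 ± 0.08) were shrunk. Batf was at 37.2, 35.1 and 36.2 CPM in control stimulated and at 26.7, 28.5 and 29.3 in Batf3 stimulated cells, from 19.5, 19.3 and 20.1 and 20.7, 20.5 and 20.4 CPM before stimulation.

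Feedback inhibitors of T cell receptor and cytokine signals had 12 positive and 5 negative calls among 35 (34.3 and 14.3%), with a median of 0.10. Over all tested genes the shares were 14.6 and 6.08%. The Ras pathway inhibitors Spred1 and Spred2 were both shifted upward. Spred1 rose to 85.1, 83.4 and 85.7 CPM with control and 104, 102 and 94 with Batf3 (0.99 ± 0.11). It started lower with Batf3, with a vector effect of -0.75 before and 0.24 after stimulation. Spred2 fell from 15.7, 15.9 and 14.4 to 12.3, 12.2 and 12.3 with control but rose from 9.37, 10 and 8.91 to 17.9, 14.8 and 16.7 CPM with Batf3 (1.12 ± 0.14). The Dusp phosphatase genes of this list moved in both directions. Dusp5 (-0.59 ± 0.05) and Dusp6 (-0.51 ± 0.07) were shifted downward, Dusp6 from a small rise to a small fall. Dusp10 (0.98), Dusp4 (0.64) and Dusp2 (0.17) were shifted upward, and Dusp1 (0.10) was not called. The NF-kB list had 7 positive and 2 negative calls among 23 (30.4 and 8.7%), with a median of 0.02. Under other scalings the sign of the median turned (-0.03 to 0.01) and there were 3 to 5 negative calls. There were 4 negative calls without the second control stimulated or the second Batf3 stimulated library. Within the NF-kB list Map3k8, a kinase gene, reversed from a fall of -0.25 to a rise of 0.28 (0.54 ± 0.07). The fall of Ikbke was gained (-0.53 ± 0.06).

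DNA replication genes fell on stimulation, and their falls were smaller with the Batf3 vector. Of 29 tested members 24 were called positive (82.8%, beside 14.6% of all tested genes) and none negative. Their median interaction was 0.71 beside 0.05 for all tested genes. Their median response was -1.55 with the control and -0.78 with the Batf3 vector, and the median vector effect was -0.23 in non-stimulated and 0.50 in stimulated cells. Of the 24, 21 were shrunk falls, 2 were gained rises and 1 was a lost fall. Mcm2, a subunit of the replicative helicase, fell from 212, 204 and 206 to 71.3, 69.2 and 69.5 CPM with control and from 134, 135 and 136 to 100, 96.6 and 102 CPM with Batf3 (interaction 1.13 ± 0.05). The Batf3 groups thus lay between the 2 control groups, below before and above after stimulation.

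Mcm6, whose promoter holds the E2F letters at both marked places, fell from 374, 376 and 369 to 109, 108 and 101 CPM with control and from 258, 257 and 267 to 153, 159 and 156 CPM with Batf3 (1.07 ± 0.05). Mcm3, Mcm4, Mcm5 and Mcm7 gave 1.05, 0.71, 0.83 and 0.84. E2f1, an activator of these genes, gave 0.98 ± 0.13. Ung, which encodes the uracil-DNA glycosylase, and Orc1, a subunit of the origin recognition complex, rose with Batf3 only. Ung was at 22.1, 21.6 and 21.2 and then 17.9, 21.4 and 19.8 CPM with control, and at 11.7, 10.5 and 12.5 and then 28.8, 28.6 and 29.9 CPM with Batf3 (1.46 ± 0.12), and Orc1 gave 1.23 ± 0.14. Cdca7, a MYC and E2F target outside the list, rose from 74, 74.8 and 77.1 to 95.6, 102 and 100 CPM with control and from 44.6, 42.5 and 45.6 to 116, 120 and 118 CPM with Batf3 (1.02 ± 0.06).

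Mitosis genes shifted less. Of 25 tested, 14 were called positive (56%, beside 14.6% of all tested genes) and none negative, all 14 as shrunk falls. The median interaction was 0.26 and the median responses were -2.44 and -2.14. Here the Batf3 cells were higher before as well as after stimulation, with median vector effects of 0.40 and 0.63. Hmmr (0.52 ± 0.11) and Cenpe (0.51 ± 0.09), both of the mitotic spindle, had the largest values. Cenpe fell from 95.8, 105 and 102 to 21.2, 18.7 and 17 CPM with control and from 120, 126 and 122 to 35.6, 32.2 and 30.5 CPM with Batf3. The DNA methylation maintenance genes Dnmt1 (0.60 ± 0.05) and Uhrf1 (0.56 ± 0.06) were also shrunk falls. Their list of 23 chromatin regulators had 9 positive and 2 negative calls (39.1 and 8.7%) with a median of 0.14. The positive calls numbered 5 with upper quartile factors or library sizes alone. They numbered 4 or 5 when any one of the control stimulated libraries, or the first or second Batf3 stimulated library, was left out.

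**Figure D4:**
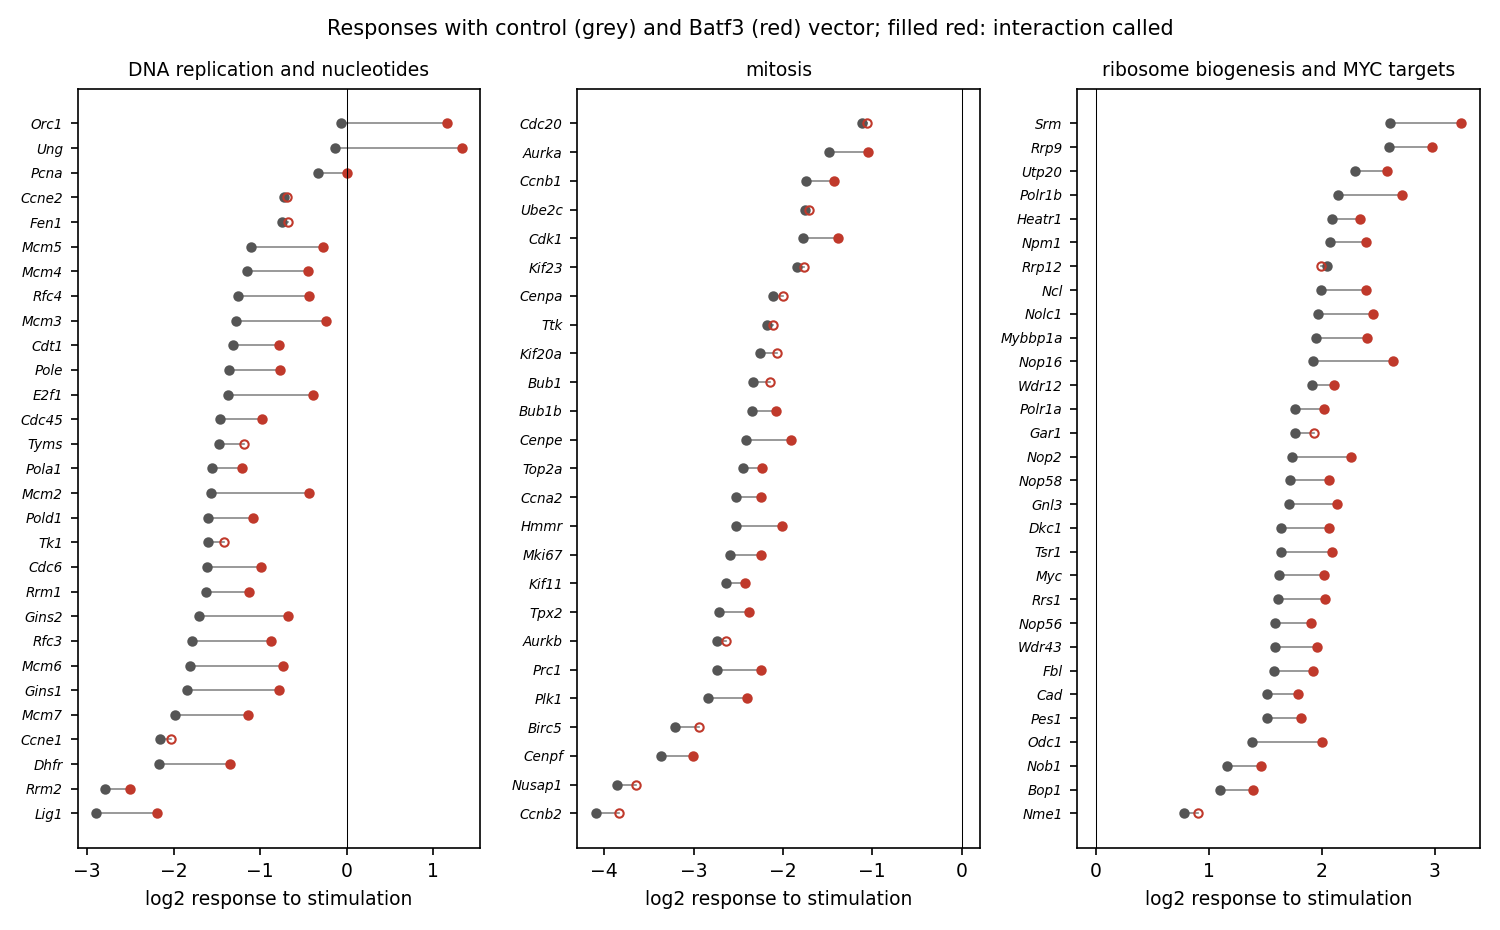
Points give the log2 response to stimulation of each tested member of 3 lists with the control (grey) and the Batf3 vector (red, filled where the interaction was called), joined by a line. In DNA replication the red points lie to the right by a median of 0.71, with Ung and Orc1 past 0; in mitosis the shift is 0.26 on falls that are larger; in ribosome biogenesis it is 0.36 on rises.

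Ribosome biogenesis genes and other MYC targets rose on stimulation, and their rises were larger with the Batf3 vector. Of 30 tested, 27 were called positive (90%, beside 14.6% of all tested genes), all as enlarged rises, and none negative. The median interaction was 0.36 and the median responses were 1.73 and 2.06. The median vector effect was -0.42 in non-stimulated and -0.04 in stimulated cells, so that the larger rise came from a lower start. Myc itself was at 405, 407 and 421 and then 1261, 1269 and 1277 CPM with control, and at 312, 290 and 284 and then 1196, 1181 and 1228 CPM with Batf3 (0.40 ± 0.04). Srm, which encodes spermidine synthase, rose from 95.2, 95 and 94.1 to 575, 572 and 583 CPM with control and from 56.1, 52.6 and 56.1 to 515, 495 and 544 CPM with Batf3 (0.63 ± 0.05). Nop16, a nucleolar protein gene, gave 0.71 ± 0.07 and Odc1, the ornithine decarboxylase gene, 0.62 ± 0.04.

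Other growth lists had the same arrangement at smaller size. Of 22 mitochondrial ribosome and import genes 13 were called positive (59.1%, beside 14.6% of all tested genes), all as enlarged rises. None was called negative, and the median was 0.24. Hspd1, the mitochondrial chaperonin gene, gave 0.55 ± 0.04 and Timm10, an import chaperone gene, 0.52 ± 0.11. Of 24 unfolded protein response and chaperone genes 16 were called positive (66.7%) and none negative, with a median of 0.26. The heat shock genes Hspa1a (0.98 ± 0.21) and Hspa1b (0.89 ± 0.18), which are near-identical copies, had the largest values. Hspa5, the chaperone of the endoplasmic reticulum, gave 0.54 ± 0.03.

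In glycolysis and glucose uptake 15 of 22 were called positive (68.2%, beside 14.6% of all tested genes) and none negative, with a median of 0.22. Pkm, the pyruvate kinase gene, rose from 751, 717 and 732 to 978, 957 and 987 CPM with control and from 662, 626 and 642 to 1261, 1212 and 1282 CPM with Batf3 (0.55 ± 0.04). Under other scalings there were 11 to 14 positive calls and 1 negative, and 1 negative call also appeared without any one of several libraries (the first control non-stimulated, the first or the third control stimulated, the first or second Batf3 stimulated). Cholesterol and fatty acid synthesis had 11 positive calls among 26 (42.3%) and none negative, with a median of 0.22. This list had 1 negative call with upper quartile factors, with library sizes alone, and without the third control stimulated or the first Batf3 stimulated library. Its Lss, the lanosterol synthase gene, reversed from 29.1, 31 and 29 down to 19.3, 17.5 and 16.7 CPM with control to 25.4, 21.1 and 22.1 up to 24.9, 27.1 and 25.4 CPM with Batf3 (0.91 ± 0.11), where the 2 Batf3 groups overlap.

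Amino acid uptake, serine and ATF4 target genes had 10 positive and 5 negative calls among 28 (35.7 and 17.9%). Over all tested genes the shares were 14.6 and 6.08%. The list's median was near 0 and was negative under other scalings (-0.05 to -0.01). It had 3 negative calls without the first or second control non-stimulated or the first Batf3 non-stimulated library. The serine enzymes Shmt1 (0.72 ± 0.07) and Phgdh (0.37 ± 0.04) had enlarged rises, while the stress gene Atf5 had a shrunk one (-0.46 ± 0.14). Oxidative phosphorylation had 5 positive and 1 negative calls among 23 (21.7 and 4.35%, near the shares over all tested genes), with a median of 0.11. It had 3 positive calls without the second control stimulated and no negative call without the first control non-stimulated library. The proteasome list had 11 positive and 1 negative calls among 20 (55 and 5%), with a median of 0.17. It had 7 positive calls without the second control stimulated library and 6 in the lowest of the alternatives. Its largest interaction was that of Psma5 (0.37 ± 0.05).

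Memory and quiescence genes split evenly, with 8 positive and 9 negative calls among 30 (26.7 and 30%) and a median of -0.01. Over all tested genes the shares were 14.6 and 6.08%. Most of the memory and quiescence genes called fell on stimulation. Eomes, a T-box factor of memory and effector cells, had a shrunk fall from a lower start. It was at 150, 154 and 151 against 333, 323 and 332 CPM before and at 38.4, 40.1 and 40 against 44.8, 46.4 and 44.4 CPM after stimulation (0.93 ± 0.06).

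The negative calls were led by Klf3, a Krüppel-like repressor gene. It went from 35.7, 35.2 and 33.3 to 10.7, 8.84 and 9.29 CPM with control and from 48.6, 57.3 and 54.8 to 6.4, 4.38 and 3.61 CPM with Batf3, so its fall was enlarged (-1.63 ± 0.16). Tcf7, which encodes TCF-1, went from 248, 252 and 261 to 66.7, 65 and 68.6 CPM with control and from 221, 220 and 220 to 39.1, 40.1 and 38.1 CPM with Batf3 (-0.57 ± 0.06). Slamf6, a receptor of the SLAM family, had a shrunk rise (-0.66 ± 0.06) although it was higher with Batf3 in both cultures, at 101, 103 and 105 against 28.2, 26.8 and 30.7 CPM before and 238, 235 and 233 against 105, 104 and 100 CPM after stimulation. Il7r, the IL-7 receptor gene, fell with both vectors (-2.99 ± 0.15 and -2.91 ± 0.09) from 137, 137 and 127 CPM with Batf3 and 37.5, 34.4 and 37.5 with control (interaction 0.09 ± 0.18, adjusted p = 0.794).

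Other enlarged falls were those of Itgb3, an integrin gene, from 106, 110 and 102 to 1.49, 1.85 and 1.4 CPM with Batf3 against 53.1, 53.2 and 55.7 to 2.28, 1.98 and 1.68 with control (-1.29 ± 0.25), of Fgf13 (-1.26 ± 0.20) and of the kinase gene Matk (-1.22 ± 0.20). That of Gucy2e, a guanylate cyclase gene (-1.24 ± 0.40), lost its call without the second or the third control stimulated or the first or the third Batf3 stimulated library (adjusted p = 0.0501 to 0.172). Shrunk falls of at least 2-fold included Arsb, a lysosomal sulfatase gene, from 70, 66.9 and 73 to 7, 7.85 and 7.08 CPM with control and from 47.7, 48.4 and 49.7 to 20, 17.8 and 16.1 CPM with Batf3 (1.82 ± 0.12). Gpsm2, a spindle orientation gene, gave 1.21 ± 0.19 and Cysltr2, a leukotriene receptor gene, 1.20 ± 0.27.

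Among 27 homing receptors and integrins 10 were called positive and 3 negative (37 and 11.1%), with a median of 0.07. Over all tested genes the shares were 14.6 and 6.08%. The chemokine receptor genes Ccr2 (0.96), Ccr4 (0.80) and Cxcr4 (0.75) were shifted upward, while Itga4, the integrin alpha 4 gene, had an enlarged fall (-0.93 ± 0.11). Among 27 actin cytoskeleton genes 12 were called positive and 3 negative (44.4 and 11.1%), with a median of 0.12. Vim, the vimentin gene, had a shrunk fall (0.83 ± 0.03) and Fscn1, an actin-bundling protein gene, a gained rise from 2.87, 2.05 and 2.37 to 9.45, 7.86 and 9.37 CPM with Batf3 against 4.58, 5.24 and 4.17 to 5.18, 6.02 and 5.71 CPM with control (1.59 ± 0.23).

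Genes of cell survival and death moved in both directions. Of 17 anti-apoptotic factors 10 were called positive and 3 negative (58.8 and 17.6%, beside 14.6 and 6.08% of all tested genes), with a median of 0.18. The positive calls numbered 5 and 6 without the second or the third control stimulated library. Bcl2 fell from 261, 259 and 280 to 78, 72.6 and 72.3 CPM with control and from 279, 292 and 288 to 130, 131 and 128 CPM with Batf3, a shrunk fall (0.70 ± 0.05). The Bcl2a1 genes had enlarged rises, with 1.24 ± 0.15 for Bcl2a1b and 1.04 ± 0.11 for Bcl2a1d, which are near-identical copies whose reads the counting could have divided. Both came mainly from a lower start, with vector effects of -1.065 and -0.82 before and 0.17 and 0.22 after stimulation. Pim1, a survival kinase gene, reversed from a rise of 0.42 to a fall of -0.18 (-0.60 ± 0.04).

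Of 18 pro-apoptotic genes and death receptors 5 were called positive and 3 negative (27.8 and 16.7%, beside 14.6 and 6.08% of all tested genes). Their median was 0.09, and -0.09 without the filter on low counts. There were 5 negative calls without the third Batf3 stimulated library. Bcl2l11, which encodes the BCL-2 antagonist BIM, fell from 235, 230 and 238 to 201, 207 and 211 CPM with control and from 226, 223 and 220 to 144, 150 and 147 CPM with Batf3 (-0.42 ± 0.05, adjusted p = 4.31e-11). The fall of Bmf, another BH3-only gene, was also enlarged (-0.85 ± 0.28), a call lost without the first control non-stimulated, the third control stimulated or the first Batf3 stimulated library (adjusted p = 0.05 to 0.0959). Fas, the death receptor gene, had an enlarged rise (0.59 ± 0.10).

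Genes of the T cell receptor complex and its signalling were shifted upward, with 20 positive and 2 negative calls among 30 and a median of 0.24. These are shares of 66.7 and 6.67%, beside 14.6 and 6.08% of all tested genes. Of the positive calls most belonged to genes that fell on stimulation. Cd247, the zeta chain gene, fell from 190, 182 and 191 to 90.2, 92.9 and 89.6 CPM with control and from 187, 198 and 189 to 165, 163 and 164 CPM with Batf3 (0.82 ± 0.05). Ptprc, which encodes CD45, fell from 1720, 1699 and 1725 to 932, 927 and 904 CPM with control and from 1460, 1513 and 1483 to 1387, 1368 and 1295 CPM with Batf3 (0.76 ± 0.03). Both started near or below the control level and ended above it. The adaptor gene Grap2 had an enlarged fall (-0.41 ± 0.05).

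Helper and regulatory lineage genes had 15 positive and 4 negative calls among 26 (57.7 and 15.4%), with a median of 0.30. Over all tested genes the shares were 14.6 and 6.08%. Stat4, the transducer of IL-12 signals, fell from 67.4, 66.5 and 68 to 27.9, 26.6 and 24.4 CPM with control, and went from 62.8, 69.5 and 68.9 to 63.7, 63.3 and 63.6 CPM with Batf3, where the groups overlap (1.27 ± 0.08, a lost fall). Il1rl1, which encodes the IL-33 receptor ST2, rose to 50.5, 52.1 and 51.7 CPM with control and 114, 127 and 119 with Batf3 (0.84 ± 0.26). Nrp1, the neuropilin gene, had a shrunk rise (-0.84 ± 0.16). The CD4 marker list given above also changed with vector and culture. It shares Foxp3 and Zbtb7b with the helper and regulatory list, so the 2 lists are not fully separate observations. Both shared genes had negative interactions (-1.90 and -0.67). Cd40lg, which is not in the helper and regulatory list, reached 56.6 CPM in its highest group, against 22.9 for Zbtb7b. Its interaction was not called (0.29).

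Cytokine receptors had 9 positive and 2 negative calls among 27 (33.3 and 7.41%, beside 14.6 and 6.08% of all tested genes), with a median of 0.13. They had 4 negative calls with upper quartile factors or without the first control stimulated library. Il6st, which encodes the signalling chain gp130, rose with Batf3 only, from 40.7, 48.2 and 45.9 to 82.7, 84.5 and 81 CPM, and was at 47.2, 49.1 and 47.4 and then 48.4, 46.6 and 46.3 CPM with control (0.90 ± 0.08). The IL-2 receptor genes Il2ra (-0.40 ± 0.04) and Il2rb (-0.38 ± 0.04) both had negative interactions. Both started higher with Batf3, with vector effects of 0.34 and 0.22 before and -0.06 and -0.15 after stimulation. JAK and STAT genes had 4 positive and 4 negative calls among 11 (36.4% each), with a median of -0.03, and Jak3 had an enlarged fall (-0.45 ± 0.07). Of 10 NK-type receptors 5 were called positive (50%) and none negative, with a median of 0.43 (0.31 without the third Batf3 non-stimulated library). The largest was Klrb1c (2.16 ± 0.52), at 3.92, 2.45 and 2.72 and then 1.07, 0.61 and 0.533 CPM with control and 0.892, 0.961 and 0.513 and then 0.521, 0.964 and 1.11 CPM with Batf3, where the groups overlap.

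Further gained and lost responses were found outside the lists. Pttg1ip, which encodes a PTTG1-binding protein, did not respond with control (35.8, 33.4 and 33.7 then 35.2, 31.5 and 36 CPM) and rose with Batf3 from 39.8, 39.8 and 40.4 to 96.2, 98.2 and 94.8 CPM (1.27 ± 0.08). Rasgrf1, an exchange factor gene for Ras, was at 10.6, 10.1 and 11.1 CPM in Batf3 non-stimulated and 1.19, 1.26 and 0.664 in Batf3 stimulated cells, and below 1 CPM in each control library (-2.32 ± 0.59). Swap70, a Rac exchange factor gene, rose from 17.1, 13.9 and 17.7 to 45.4, 47.6 and 49.9 CPM with control but was at 22.6, 19 and 23.3 and then 22, 22.5 and 24.1 CPM with Batf3 (-1.47 ± 0.11). Hvcn1, the voltage-gated proton channel gene, lost its fall (1.37 ± 0.18) and Plpp5, a lipid phosphatase gene, its rise (-1.36 ± 0.16).

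Interferon-stimulated genes fell on stimulation with both vectors, with medians of -2.54 and -2.80. Their interactions split into 12 positive and 13 negative calls among 38 (31.6 and 34.2%), with a median of -0.01. Over all tested genes the shares were 14.6 and 6.08%. Isg15, a ubiquitin-like modifier gene, had a shrunk fall from 304, 308 and 304 to 83.7, 78.4 and 85.2 CPM with control and from 151, 156 and 154 to 71.9, 74.7 and 72.5 CPM with Batf3 (0.82 ± 0.05). Oasl1 reversed (0.66 ± 0.08) from a fall of -0.43 to a rise of 0.24. Ifi213, a DNA sensor gene of the HIN-200 cluster, had an enlarged fall from 307, 298 and 319 to 36.4, 35.1 and 34.6 CPM with control and from 216, 226 and 224 to 14.5, 14.3 and 13.3 CPM with Batf3 (-0.86 ± 0.08). Genes of the Ifi200 and Trim30 clusters resemble each other, and their reads could have been divided among copies.

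MHC class I and antigen presentation had 12 positive and 1 negative calls among 19 (63.2 and 5.26%, beside 14.6 and 6.08% of all tested genes), with a median of 0.14. The negative calls numbered 0 to 2 when single libraries were left out (0 without the second or the third control non-stimulated or the first Batf3 non-stimulated library, 2 without the first or second control stimulated or the first Batf3 stimulated library). Cd74, the invariant chain gene, gave 0.43 ± 0.12 and the immunoproteasome gene Psmb10 0.30 ± 0.07. The p53 target list leaned the other way, with 2 positive and 5 negative calls among 20 (10 and 25%). Its median was 0.01, and was negative under other scalings and without the first control stimulated library (-0.10). Cdkn1a, the p21 cell cycle inhibitor gene, had a shrunk rise from 130, 134 and 122 to 398, 411 and 418 CPM with control and from 153, 146 and 146 to 301, 310 and 321 CPM with Batf3 (-0.60 ± 0.05), and Sesn1 an enlarged fall (-0.72 ± 0.16).

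**Figure D5:**
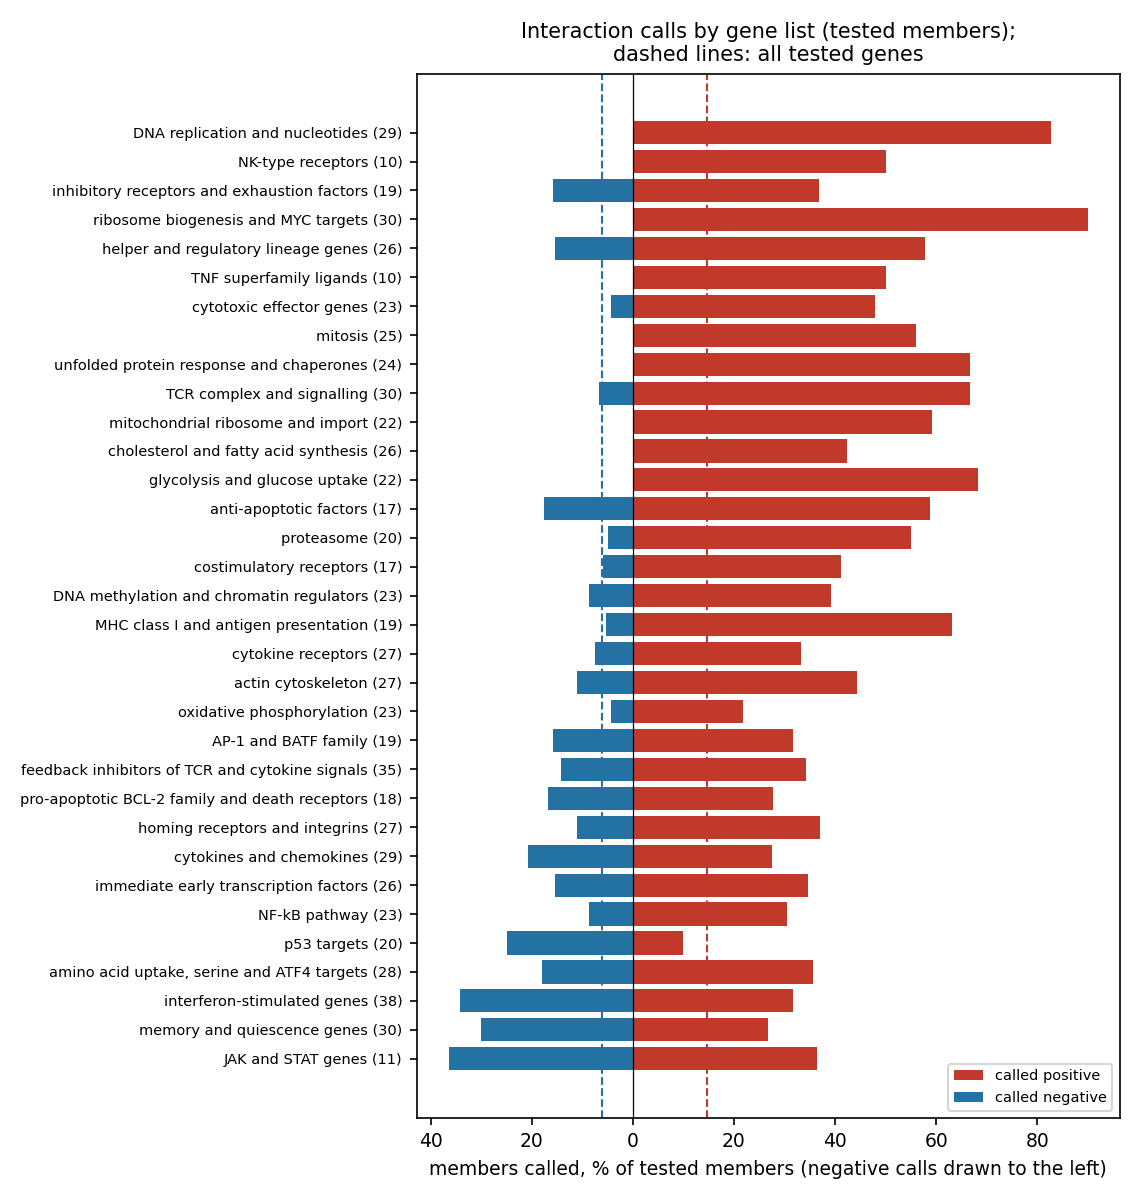
Bars give the share of tested members of each of the 33 lists (number tested in parentheses) with a positive (red, to the right) or negative (blue, to the left) called interaction, ordered by the list's median interaction; dashed lines mark the shares over all tested genes, 14.6 and 6.08%. Ribosome biogenesis and DNA replication reach farthest to the right with no negative call, and interferon-stimulated, memory and JAK and STAT genes have near-equal bars on both sides.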

How the data were processed

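RNA was measured in 12 libraries of sorted, transduced OT-I CD8 T cells, 3 technical replicates in each of 4 groups. Per the labels, poly-A RNA from 100 ng of total RNA was made into libraries with a stranded kit. The deposited table holds raw read counts per Ensembl gene; per the submitters' processing notes the authors used STAR 2.7 with GRCm38 and featureCounts. Not given in the sources used here were the annotation release, whether counting used strand, and how reads with several alignments were handled. Coordinates are from GENCODE M21, which held 55154 of the 55335 identifiers.

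The counts were analysed as deposited with edgeR 4.0.16 in R 4.3.3: TMM factors, filterByExpr at its defaults, and a quasi-likelihood fit with robust dispersion to 4 group means, with 8 residual degrees of freedom. Tests were two-sided with Benjamini-Hochberg adjustment over all tested genes, and a call is an adjusted p under 0.05. Log2 values are given ± SE, which is never below counting error. Promoter windows are those of RefSeq (GRCm38.p6) and were found for 10051 tested genes.

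From called genes with at least 10 CPM in a group, named symbols and no receptor segments, the text names by size 6 reversed responses, 5 of each enlarged and shrunk kind, 3 gained and 3 lost. It adds up to 2 members in each direction from each list, and a fixed set of genes; members given beyond that show how a list varies, and Cd28, Tigit and Cdca7 were among those chosen after their values were seen. The vector by stimulation question, the 33 gene lists, the 8 marker lists and the named genes were chosen with earlier results of these data known. The lists are described by counts and medians, with no test of their own. Some genes withheld for evaluation are counted in lists but not reported here.

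On simulated counts for 15702 genes, this fit recovered 49% of 100 log2 interactions of 0.5 and 72% of 100 of 1. None had the wrong sign, and 7.63% of the calls on simulated counts were false. Far fewer genes held an interaction there than the 3250 called in the data, so these shares need not hold for the data. Alternatives were other scalings, filters and tools (DESeq2 1.42.0, voom of limma 3.58.1), a replicate block and leaving out each library. Counting intervals are exact (Clopper-Pearson, 95%) and, with floors, cover counting error only, since PCR reads without molecular identifiers are not independent molecules.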

Additional observations from a re-analysis of the deposited data

Results flagged for a closer look

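The genes given here had responses of opposite sign with the control and the Batf3 vector, and the difference between the vectors was tested by the interaction (edgeR's quasi-likelihood test, adjusted p under 0.05 for each). Ctla4 (log2 interaction 4.03), Casz1 (1.71), Cd2 (1.31), Spred2 (1.12), Lss (0.91), Jun (0.82), Oasl1 (0.66) and Map3k8 (0.54) fell with the control vector and rose with the Batf3 vector. Foxp3 (-1.90), Actn1 (-1.38), Pim1 (-0.60), Dusp6 (-0.51) and Itgb1 (-0.35) rose with the control vector and fell with the Batf3 vector. For Foxp3 the non-stimulated and stimulated libraries overlap with the control vector, and for Lss they overlap with the Batf3 vector. For the other genes they do not overlap with either vector.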

How the results depend on the processing

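Across 21 alternative fits, 120 of 134 called named genes kept their call in every one, 14 lost it in at least 1 and none reversed. With voom, Cth (adjusted p = 0.0523), Xcl1 (0.0635) and Ifng (0.306) lost theirs. Over the alternatives the count of positive calls reached its lowest value, 1524, without the filter on low counts. With at least 10 CPM required in a group, or with DESeq2, the calls of at least 2-fold numbered 51 and 68 positive and 35 and 42 negative. The first of these tests fewer genes by construction, and for DESeq2 the cause was not tested. Without the filter there were 838 enlarged rises, 103 gained rises and 42 reversed falls. Gained rises numbered 102 with upper quartile factors, 102 at 10 CPM and 103 with DESeq2, and lost falls 77 at 10 CPM. When classes were set by sign and size alone, reversed rises numbered 153 and reversed falls 207, and gained and lost classes held 0 genes by construction. Leaving out each library in turn gave 1565 to 2263 positive and 824 to 1137 negative calls, 865 to 1322 enlarged rises, 106 to 204 gained rises, 80 to 146 lost rises and 71 to 127 lost falls. The replicate numbers do not pair the libraries: of 18 same-numbered pairs 0 had a correlation of deviations over 0.1, and 4 of 12 libraries correlated best with their own number. With the replicate block there were 2239 positive and 937 negative calls, 121 and 111 of them at 2-fold. Depth limits genes with few counts before stimulation, such as Samd4, Cth, Stra6 and Il10.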
